A study of Mus musculus with 12 samples.

Results

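Genes that macrophages, monocytes and neutrophils use were followed in the RNA of mouse T cells sorted from cultured spleen cells, as a measure of myeloid cells, or of their RNA, in the sorts. The 10 genes, of 22180 named on the array, were Lyz2, Fcgr3, Cd68, Csf1r, Fcer1g, Tyrobp, Cd14, Itgam, Spi1 and Ctss. Each was read from a probe set annotated with its symbol alone, and each had 1 such probe set. Tests were run on the 14323 genes whose mean reached the 40th percentile of all probe sets, log2 4.28, and 9 of the 10 genes were among them. Cd14, with a mean of 3.99 over the 12 arrays, was below that level.

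Whole splenocytes had been cultured for 24 h with 50 µM linoleic acid, a dietary fatty acid, or without it, and CD4+ or CD8+ T cells were then sorted. Each sort was made from both cultures, which gave 4 groups of 3 arrays, and every group had spent the same time in mixed culture with the other spleen cells before the sort. The labels give neither strain, genotype or age nor the purity of the sorts, and do not state that replicates came from separate animals or cultures. A p-value here therefore measures no more than the spread among these samples, and that spread may be technical. Arrays are numbered 1 to 3 in each group, and the meaning of the number is not stated.

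Myeloid cells are the phagocytes of the spleen, and they share a set of genes, many of which T cells use little or not at all. Receptors for the constant part of antibodies pair with short adaptors that carry an ITAM, a tyrosine motif that passes the signal to the kinase Syk. The growth factor receptor of macrophages, the integrin of neutrophils and monocytes and the enzymes of the phagosome depend on the transcription factor PU.1, the product of Spi1. Several of the genes are not confined to myeloid cells: natural killer cells use Fcer1g and Tyrobp, and B cells use Spi1 and Ctss.

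The sorts carried their own markers. Cd3g, a chain of the T cell receptor complex, lay between log2 10.9 and 11.3 on all 12 arrays, Cd4 between 10.8 and 11.2 in the CD4 sorts, and Cd8a between 10.98 and 11.29 in the CD8 sorts. Array medians ran from 4.66 to 4.80, and arrays correlated at 0.946 to 0.984 over probe sets. Genes of olfactory and other chemosensory receptors, which blood cells use little if at all, were taken as a gauge of dim signal, and 95% of the 1409 measured had a mean at or below log2 5.11. Lyz2, Fcgr3, Cd68, Fcer1g, Tyrobp, Spi1 and Ctss had means above that level. The means of Itgam (4.93), Csf1r (4.75) and Cd14 (3.99) did not exceed it.

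A stretch of promoter from RefSeq was read for 6 of the 10 genes. The reading left out a chromosome, so a gene not among the 6 need not lack a stretch in RefSeq. The 250 bases before the transcription start are shown for Itgam, Lyz2 and Fcer1g, since these 3 differed most with the replicate number among the genes with a sequence. They are given in mouse build GRCm38.p6, 5′ to 3′ on the strand of the gene. Capitals mark GAGGAA, a core form of the purine-rich site that PU.1 binds, or its reverse complement TTCCTC. Itgam lies on the plus strand at chr7:128062390-128062639, Lyz2 on the minus strand at chr10:117282273-117282522 and Fcer1g on the minus strand at chr1:171234350-171234599.
Itgam: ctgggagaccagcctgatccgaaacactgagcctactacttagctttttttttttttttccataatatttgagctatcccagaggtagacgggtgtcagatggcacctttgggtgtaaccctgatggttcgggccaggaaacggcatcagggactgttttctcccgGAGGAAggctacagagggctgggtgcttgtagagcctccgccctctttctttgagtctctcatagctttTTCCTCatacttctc
Lyz2: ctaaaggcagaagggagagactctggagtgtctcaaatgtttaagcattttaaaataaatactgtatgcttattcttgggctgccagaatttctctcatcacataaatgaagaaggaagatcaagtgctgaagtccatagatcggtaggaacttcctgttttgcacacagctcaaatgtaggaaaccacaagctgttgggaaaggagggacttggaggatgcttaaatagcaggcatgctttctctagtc
Fcer1g: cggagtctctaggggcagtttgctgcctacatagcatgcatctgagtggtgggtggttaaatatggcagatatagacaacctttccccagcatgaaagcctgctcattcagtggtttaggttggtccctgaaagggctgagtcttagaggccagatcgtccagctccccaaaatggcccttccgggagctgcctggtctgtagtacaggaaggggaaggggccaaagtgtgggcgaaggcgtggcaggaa

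The Itgam stretch held the motif at 84 and at 15 bases before the start, once on each strand. No match stood in these windows of Lyz2 or Fcer1g. Of the 6 genes read, 4 (Itgam, Fcgr3, Cd68 and Ctss) had at least 1 match on either strand. Among mouse promoter stretches of the same length, 23.3% of 32851 did. The first count is by gene, and Fcgr3 had overlapping stretches, while the share is by stretch, over 27025 genes. The share also includes the chromosome that was left out for the myeloid genes. No other motif was searched. A match describes letters and is not a measured site.

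The level of several myeloid genes went with the replicate number. Fcer1g, Lyz2, Itgam, Tyrobp and Spi1 were lower on the arrays numbered 1 than on those numbered 2 and 3, by 2.49-fold for Fcer1g and 1.30-fold for Spi1. These were 5 of the 9 tested genes (limma, moderated F test of the number beside the 4 groups, adjusted p under 0.05 over all genes). Of all 14323 tested genes 14.0% passed the same test, and 4.56% passed with lower values on the arrays numbered 1. The median difference was 0.38 (log2, mean of numbers 2 and 3 minus number 1) over the 9 tested genes and -0.07 over all tested genes.

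**Figure D1:**
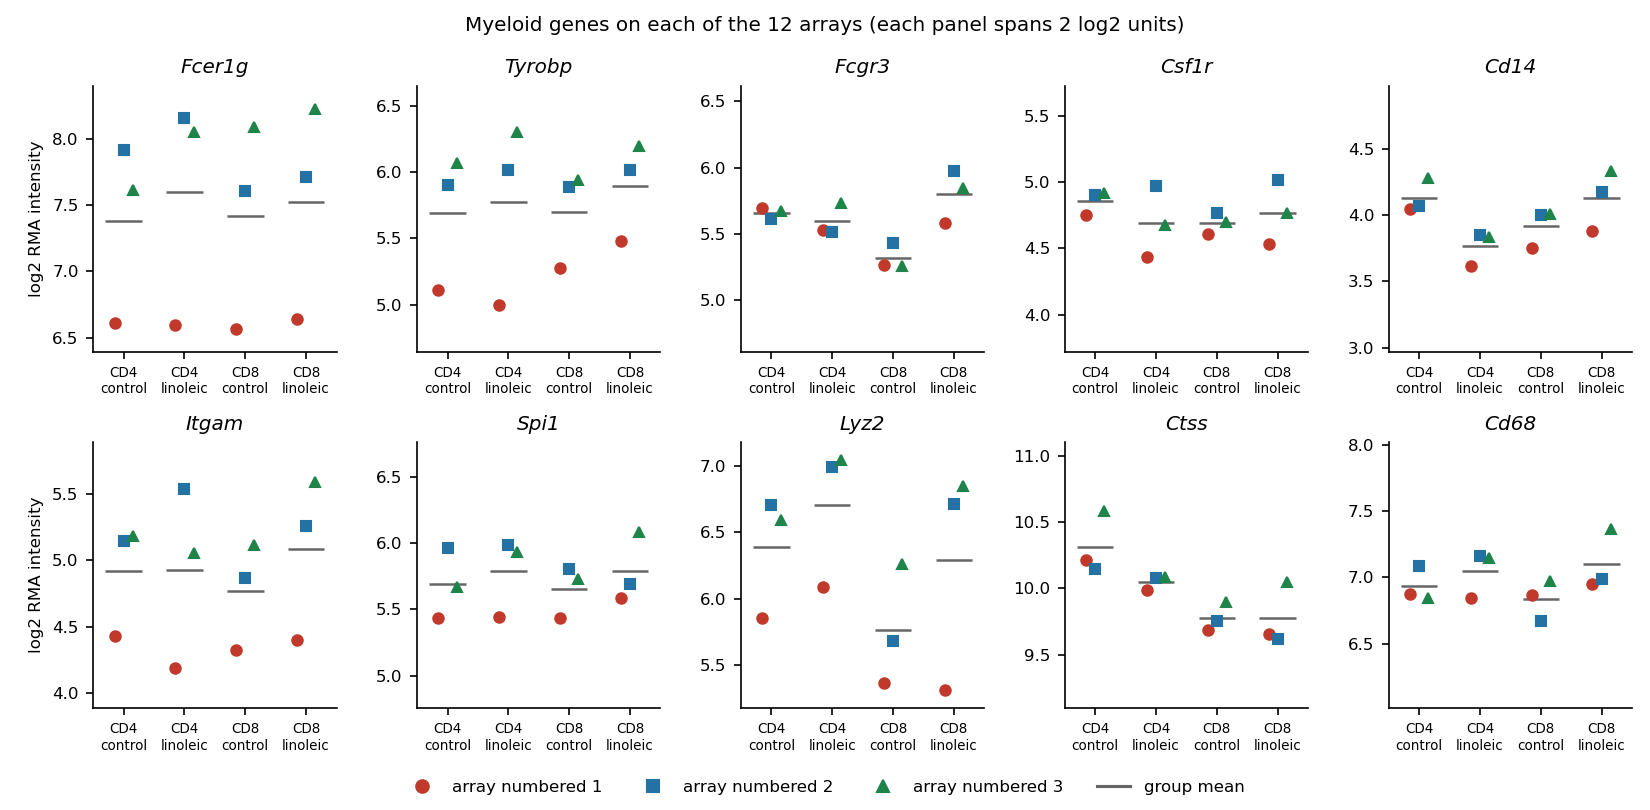
Log2 RMA intensity of the 10 myeloid genes (y axis, 2 log2 units in each panel) on the 3 arrays of each of the 4 groups (x axis), with a symbol for each replicate number and a line at each group mean (n = 3). In Fcer1g, Tyrobp, Itgam and Spi1 the 4 arrays numbered 1 lie below the other 8 arrays, and Fcgr3, Ctss and Cd68 show no such gap.

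Fcer1g (probe set 17229658) encodes the FcRγ chain, the ITAM adaptor shared by activating Fc receptors. On the arrays numbered 1, 2 and 3 it read 6.61, 7.91 and 7.62 in CD4 controls, 6.60, 8.15 and 8.05 in CD4 linoleic acid, 6.57, 7.60 and 8.09 in CD8 control, and 6.64, 7.71 and 8.22 in CD8 linoleic acid (log2 intensity). The 4 arrays numbered 1 were the lowest of all 12, and the values of the 4 groups overlapped throughout. Its mean was 6.61 ± 0.03 (SD, n = 4) on the arrays numbered 1, 7.85 ± 0.24 on those numbered 2 and 7.99 ± 0.26 on those numbered 3. The difference of 1.31 ± 0.11 (SE) on the log2 scale had a limma adjusted p of 4.84e-06, and number 2 and number 3 each stood above number 1, by 1.24 ± 0.13 and 1.39 ± 0.13.

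Tyrobp (17476364) encodes DAP12, the ITAM adaptor of receptors such as TREM2 and of activating receptors of natural killer cells. Its readings for numbers 1, 2 and 3 were 5.11, 5.90 and 6.07 in CD4 controls, 4.996, 6.02 and 6.30 in CD4 linoleic acid, 5.28, 5.88 and 5.94 in CD8 control, and 5.48, 6.01 and 6.20 in CD8 linoleic acid. Again every array numbered 1 was below the other 8, while the groups overlapped. The difference by number was 0.83 ± 0.10, or 1.77-fold (limma adjusted p = 0.000102).

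Fcgr3 (17229620) encodes FcγRIII, a low-affinity receptor for IgG that signals through the FcRγ chain. It did not share the pattern of its adaptor. CD4 control arrays gave 5.70, 5.61 and 5.67, CD4 linoleic acid arrays 5.53, 5.52 and 5.74, CD8 control arrays 5.27, 5.43 and 5.26, and CD8 linoleic acid arrays 5.58, 5.97 and 5.85. The array numbered 1 was the lowest of its group in 1 group and the highest in 1 group, and the difference by number was 0.11 ± 0.09 (limma adjusted p = 0.661). The 3 CD8 control arrays were lower than all other arrays.

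Csf1r (17351053) encodes the receptor of CSF1 and IL-34, on which macrophages depend. CD4 control arrays read 4.75, 4.90 and 4.92, CD4 linoleic acid arrays 4.43, 4.97 and 4.68, CD8 control arrays 4.61, 4.77 and 4.70, and CD8 linoleic acid arrays 4.53, 5.01 and 4.77. The array numbered 1 was the lowest in each group, but the difference by number, 0.26 ± 0.09, did not pass (limma adjusted p = 0.0813). All of these values lay under the level that 95% of the chemosensory genes did not exceed.

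Cd14 (17353747) encodes a receptor that hands bacterial lipopolysaccharide to TLR4. Readings were 4.04, 4.07 and 4.28 in CD4 controls, 3.61, 3.85 and 3.83 in CD4 linoleic acid, 3.75, 4.003 and 4.01 in CD8 control, and 3.88, 4.17 and 4.33 in CD8 linoleic acid. Number 1 was the lowest of each group, and the 3 CD4 linoleic acid arrays were below the 3 CD4 control arrays. Fitted without the filter, which had left the gene out, the difference by number was 0.25 ± 0.08 (limma adjusted p = 0.151).

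Itgam (17483577) encodes CD11b, the alpha chain of the integrin Mac-1 of neutrophils, monocytes and macrophages. It read 4.43, 5.14 and 5.19 in CD4 controls, 4.19, 5.53 and 5.06 in CD4 linoleic acid, 4.32, 4.87 and 5.11 in CD8 control, and 4.40, 5.26 and 5.59 in CD8 linoleic acid. The arrays numbered 1, at 4.34 ± 0.11 (SD, n = 4), were all below the other 8, which lay between 4.87 and 5.59. Between numbers the difference was 0.88 ± 0.11, or 1.84-fold (limma adjusted p = 0.000321). Some of the higher arrays passed the level of 5.11 and none of those numbered 1 did.

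Spi1 (17373177) encodes PU.1, which drives myeloid and B cell differentiation and is shut off as T cells mature. The arrays read 5.43, 5.96 and 5.67 in CD4 controls, 5.45, 5.99 and 5.94 in CD4 linoleic acid, 5.43, 5.80 and 5.73 in CD8 control, and 5.59, 5.69 and 6.08 in CD8 linoleic acid. The arrays numbered 1 were below the other 8, though the highest of them (5.59) and the lowest of the others (5.67) were close. The difference was 0.38 ± 0.10, or 1.30-fold (limma adjusted p = 0.0365). It held in 7 of 22 alternatives, with adjusted p of 0.0142 to 0.418, and was lost among others when the filter on dim genes was removed (0.0654), so the result for Spi1 is close to the threshold.

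Lyz2 (17245223) encodes lysozyme M, an enzyme that cleaves bacterial cell walls and marks monocytes, macrophages and neutrophils. It read 5.86, 6.71 and 6.60 in CD4 controls, 6.09, 6.99 and 7.04 in CD4 linoleic acid, 5.36, 5.68 and 6.26 in CD8 control, and 5.31, 6.71 and 6.85 in CD8 linoleic acid. The array numbered 1 was the lowest in every group. CD8 control number 2, at 5.68, lay within the range of the arrays numbered 1, which reached 6.09 in CD4 linoleic acid. The difference by number was 0.95 ± 0.12, or 1.93-fold (limma adjusted p = 0.000369). With the 6 control arrays alone it was 0.70 and did not pass (adjusted p = 0.0664).

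Ctss (17400375) encodes cathepsin S, the lysosomal protease that trims the invariant chain in antigen-presenting cells. Its readings were 10.21, 10.14 and 10.58 in CD4 controls, 9.99, 10.08 and 10.08 in CD4 linoleic acid, 9.68, 9.76 and 9.90 in CD8 control, and 9.66, 9.62 and 10.05 in CD8 linoleic acid. CD4 control arrays were the highest and did not overlap any other group, and number 1 was the lowest in 2 of the 4 groups. The difference by number, 0.14 ± 0.09 (limma adjusted p = 0.121), did not pass. Its mean over the 12 arrays was 9.98, against 9.28, 11.15 and 11.50 for the T cell genes Cd3d, Cd3g and Cd3e. Probe sets differ in their response, so these values do not rank genes by amount of RNA. Which cells of the sorts gave the Ctss signal was not tested.

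Cd68 (17264835) encodes macrosialin, a glycoprotein of the lysosomal membrane. It read 6.88, 7.08 and 6.85 in CD4 controls, 6.84, 7.16 and 7.14 in CD4 linoleic acid, 6.87, 6.67 and 6.98 in CD8 control, and 6.95, 6.99 and 7.37 in CD8 linoleic acid. Neither groups nor numbers separated. The arrays numbered 1 spread little, with an SD of 0.05 (n = 4) against 0.22 for number 2 and for number 3, and the difference by number was 0.15 ± 0.10 (limma adjusted p = 0.452).

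Counted over the 10 genes, the array numbered 1 was the lowest of its group in all 4 groups for 7 (Lyz2, Csf1r, Fcer1g, Tyrobp, Cd14, Itgam and Spi1). Among all tested genes, which leave out Cd14, 4.73% had that order. For 4 genes (Fcer1g, Tyrobp, Itgam and Spi1) the 4 arrays numbered 1 were all below the 8 others, an order that 2.02% of the tested genes showed. In bulk RNA, fewer cells of a type and less RNA per cell cannot be told apart.

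**Figure D2:**
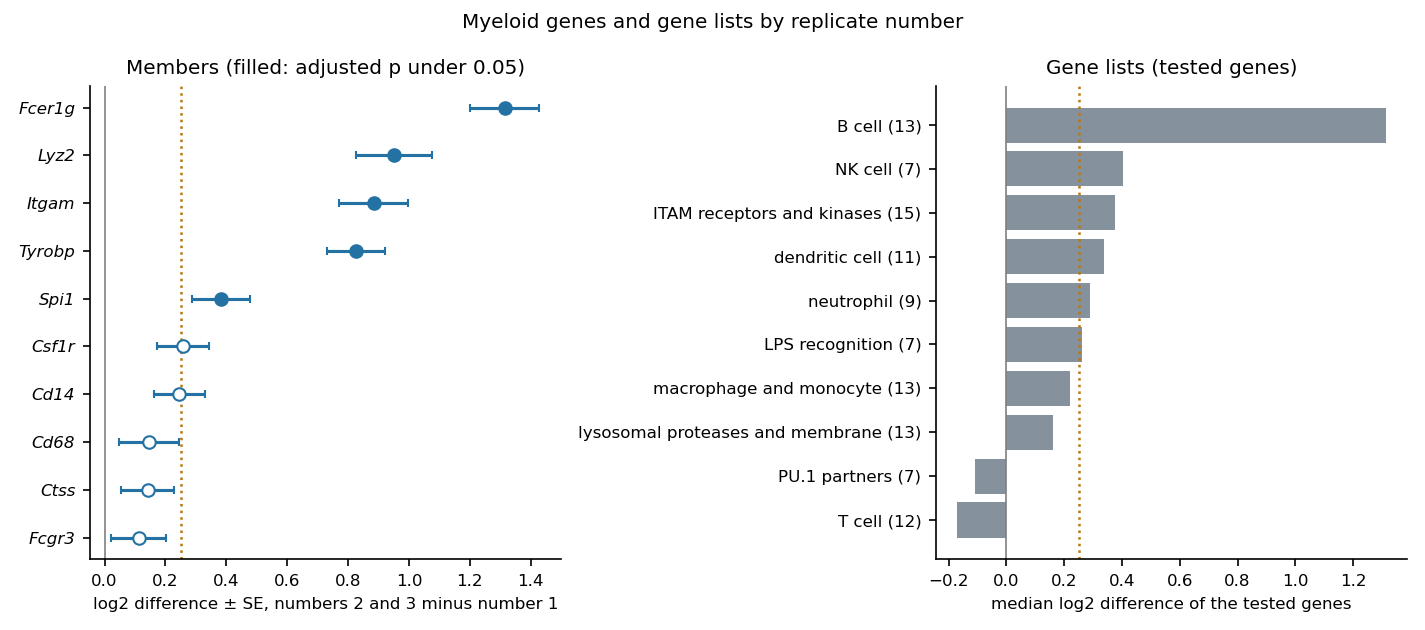
Log2 difference of the arrays numbered 2 and 3 (mean) minus those numbered 1 (x axes), for the 10 myeloid genes with SE bars (left, Cd14 from the fit without the filter) and as the median over the tested genes of 10 lists (right, number tested in parentheses). The dotted line marks the mean difference of the chemosensory receptor genes, 0.25; Fcer1g (1.31) and the B cell list (1.31) lie farthest to the right.

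Other measures moved with the replicate number as well. The mean of the chemosensory receptor genes was 3.06 ± 0.07 (SD, n = 4) on the arrays numbered 1, 3.27 ± 0.10 on number 2 and 3.36 ± 0.08 on number 3, so that numbers 2 and 3 stood 0.25 above number 1. The differences of Csf1r, Cd14, Cd68, Ctss and Fcgr3 were about as large as that or smaller, and those of Fcer1g, Lyz2, Itgam, Tyrobp and Spi1 were larger. The co-receptor that each sort should lack was lower on number 1 as well. Cd8a in the CD4 sorts lay between 5.01 and 5.41 on number 1 and between 6.16 and 6.82 on the others, and Cd4 in the CD8 sorts between 5.12 and 5.32 against 6.01 to 6.48.

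B cell genes moved with the number as a group. All 13 tested B cell genes passed and were lower on number 1, with a median difference of 1.31, and their mean lay between 5.82 and 6.22 on number 1 and between 6.97 and 7.56 on the others. Ms4a1, which encodes CD20, differed by 1.87 and Cd79a, a chain of the B cell receptor, by 1.73. Of the T cell genes 9 had higher values on number 1, and the 3 co-receptor genes had lower values. Of 12 tested, 4 passed and were higher on number 1, Bcl11b by 0.41, Cd5 by 0.36, Thy1 by 0.34 and Cd3e by 0.32, and 0 passed with lower values there. The co-receptor genes Cd8a (0.65), Cd4 (0.34) and Cd8b1 (0.19), taken over both sorts, had lower values on number 1 and did not pass. The mean of the T cell list overlapped between numbers, at 9.35 to 9.63 on number 1 and 9.18 to 9.69 on the others. Within the CD4 sorts it was higher on number 1 (9.42 and 9.35) than on the others (9.18 to 9.34). Within the CD8 sorts the numbers overlapped. Whether B cells, other cells or the dim signal had a part in the differences of the myeloid genes was not tested.

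**Figure D3:**
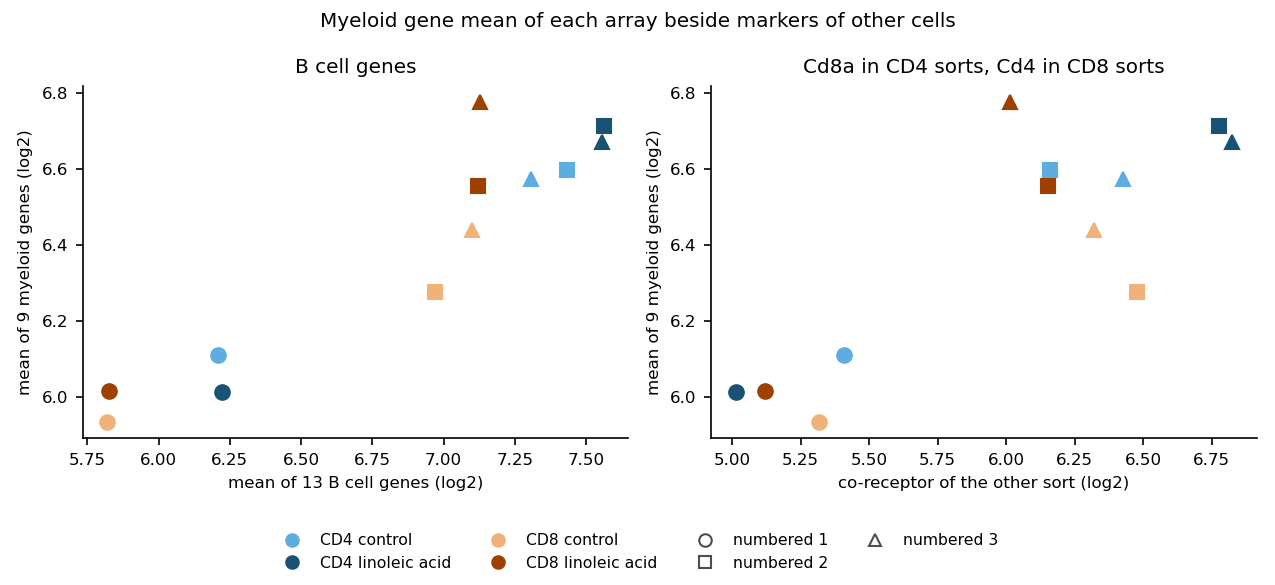
Mean log2 intensity of the 9 tested myeloid genes (y axes) on each array against the mean of 13 B cell genes (left) and against the co-receptor of the other sort, Cd8a in CD4 sorts and Cd4 in CD8 sorts (right); colours mark groups and symbols mark replicate numbers. The 4 arrays numbered 1 lie at the lower left, with myeloid means of 5.93 to 6.11 against 6.28 to 6.78 on the other 8.

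Markers of single myeloid lineages gave a mixed picture by number. The median over the macrophage and monocyte markers was 0.22, against 0.25 for the mean of the chemosensory receptor genes. Of 13 markers tested 4 passed, all lower on number 1. These were Cybb, the catalytic chain of the phagocyte oxidase, which B cells use too (2.07), Mpeg1, which encodes perforin-2 (1.69), Cx3cr1, the fractalkine receptor (0.62), and Adgre1, a surface receptor of macrophages (0.60). Of the 13 markers, 3 had higher values on number 1 and did not pass, Mertk (-0.14), Marco (-0.08) and C1qb (-0.02). The list mean lay between 4.64 and 4.93 on number 1 and between 5.01 and 5.35 on the others. Of the 20 markers measured, 7 were below the filter, among them C1qa, Siglec1 and Cd163, which mark resident macrophages.

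Neutrophil markers passed in 4 of 9, all lower on number 1. These were the cytokine gene Il1b (1.64), Ngp, a protein of neutrophil granules (0.70), and S100a8 and S100a9, the chains of calprotectin (0.64 and 0.57). The mean of the list was 4.46 to 4.75 on number 1 and 4.88 to 5.20 on the others, and 6 further markers, Ly6g among them, were below the filter. Dendritic cell markers passed in 6 of 11, led by the MHC class II genes H2-Ab1 (1.77) and H2-Aa (1.72), which B cells share, with Ccl22 (1.58), Cd83 (1.06) and H2-Eb1 (0.95). The list mean was 5.79 to 6.12 on number 1 and 6.45 to 6.83 on the others. Natural killer cell genes passed in 4 of 7, namely Gzma (1.08), Ncr1 (1.06), Klrb1c (0.55) and Klri2 (0.40), with list means that overlapped (5.67 to 6.21 and 6.04 to 6.53). Of 3 tested mast cell, basophil and eosinophil genes 1 passed, Il5ra (0.42), and of 4 platelet genes and 1 erythroid gene 0 passed.

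The partners of the myeloid genes were taken role by role. Of 15 tested receptors, kinases and other partners of the ITAM adaptors 8 passed, all lower on number 1, with a median of 0.38. The leading 5 were the kinase gene Syk (1.23), Btk (1.40), Clec7a, which encodes the beta-glucan receptor Dectin-1 (1.25), the phospholipase gene Plcg2 (0.74) and Fcgr2b, the inhibitory IgG receptor (0.97). B cells use Syk, Btk, Plcg2 and Fcgr2b as well. Among 4 genes of the CSF1 and related growth factor pathways, Csf2rb, the shared chain of the IL-3, IL-5 and GM-CSF receptors, passed (0.86), and Csf3r (0.30) and Csf2ra (-0.14) did not. Of 7 genes of lipopolysaccharide recognition 1 passed, Cd180, a TLR4 relative of B cells and myeloid cells (1.68). Tlr4 itself differed by 0.32 ± 0.11 and did not pass (limma adjusted p = 0.109).

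Transcription factors that work with PU.1 split. Irf8 (1.16) and Irf4 (1.14), partners of PU.1 in myeloid cells and B cells, were lower on number 1. Runx1 was higher there by 0.26, and the other 4 of 7 did not pass. Of the beta-2 integrin genes 0 of 4 passed, nor did any have an unadjusted p under 0.05. Itgb2, the partner chain of CD11b, named here outside the rule for naming genes, differed by -0.02 ± 0.09; T cells carry it in another integrin, LFA-1. Lysosomal genes passed in 5 of 13, all lower on number 1. Ctsh, which encodes cathepsin H, led (1.49), followed by the asparaginyl endopeptidase gene Lgmn (0.65), Ctsz (0.48), Ctsc (0.31) and the cysteine protease inhibitor gene Cst3 (0.30). Over that list the median was 0.16.

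The myeloid genes with the large differences also varied together among themselves. As deviations from the group means over the 12 arrays, Fcer1g and Itgam correlated at 0.97, the highest of all pairs, and Fcgr3 and Cd68 at 0.02, the lowest. Pearson correlation with the B cell mean was 0.98 for Fcer1g, 0.95 for Tyrobp and Itgam, 0.94 for Lyz2, 0.87 for Spi1, 0.86 for Cd14, 0.79 for Csf1r, 0.53 for Cd68, 0.50 for Fcgr3 and 0.44 for Ctss. These values describe the 12 arrays, of which those numbered 1 stood apart in the B cell mean and in Fcer1g, Tyrobp, Itgam and Spi1.

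By the same measure, the genes most like the mean of the 9 tested myeloid genes were Cd79b (0.99), Btbd35f17 (0.99), Ly86 (0.99), Ly6d (0.98), Ctsh (0.98), Dok3 (0.98), Cd24a (0.98), Ms4a1 (0.97), Ube2l6 (0.97) and Cd83 (0.97). Cd79b and Ms4a1 belong to the B cell list, Ctsh to the lysosomal list and Cd83 to the dendritic cell list. Single genes had other neighbours. Tyrobp was nearest to Slamf7, Gzma and Ccl3 (all 0.99), and Fcer1g to Ube2l6, Fcrl5 and Ly6d (all 0.99). Spi1 was nearest to Igsf6 (0.96), Cxcl9 (0.95) and Nrp2 (0.95), and Itgam to Dok3, Fcer1g and Pkib (all 0.97). Lyz2 was nearest to Btbd35f17 (0.98), Blk (0.97) and Myof (0.96). The nearest of Fcgr3 were Vtcn1 (0.94), Tent5b (0.94) and Gdf5 (0.89), those of Ctss Gpr65 (0.97), Naa20 (0.96) and Atp5k (0.96), those of Csf1r Mreg (0.95), Fap (0.95) and Icosl (0.94), and those of Cd68 Pfpl, Ccdc116 and Zic2 (all 0.93).

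The comparisons between groups asked whether the myeloid genes differed with linoleic acid or between the CD4 and the CD8 sorts. With group means as the model, 0 of the 9 tested genes passed in any of the 5 comparisons (limma, adjusted p under 0.05 over 14323 genes). With the 8 arrays numbered 2 and 3 alone, an alternative added after the data were seen, 0 passed as well. The share of all genes whose arrays do not overlap between groups was not counted, so such an order only describes a gene. The spread within groups was wide for the genes that followed the number. Fcer1g had SDs of 0.68 to 0.87 (n = 3) around group means of 7.38 to 7.60, so by these SDs its 4 groups cannot be put in order. The same holds for Tyrobp (means 5.69 to 5.90, SDs 0.37 to 0.69), Itgam (4.77 to 5.08, SDs 0.40 to 0.68) and Spi1 (5.65 to 5.79, SDs 0.19 to 0.30). These SDs include the differences by number. With the number as a block, the SE of a difference between 2 groups was 0.15 instead of 0.50 for Fcer1g and 0.13 instead of 0.33 for Tyrobp. It was 0.15 instead of 0.35 for Itgam and 0.13 instead of 0.19 for Spi1. None of these genes passed with the block.

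**Figure D4:**
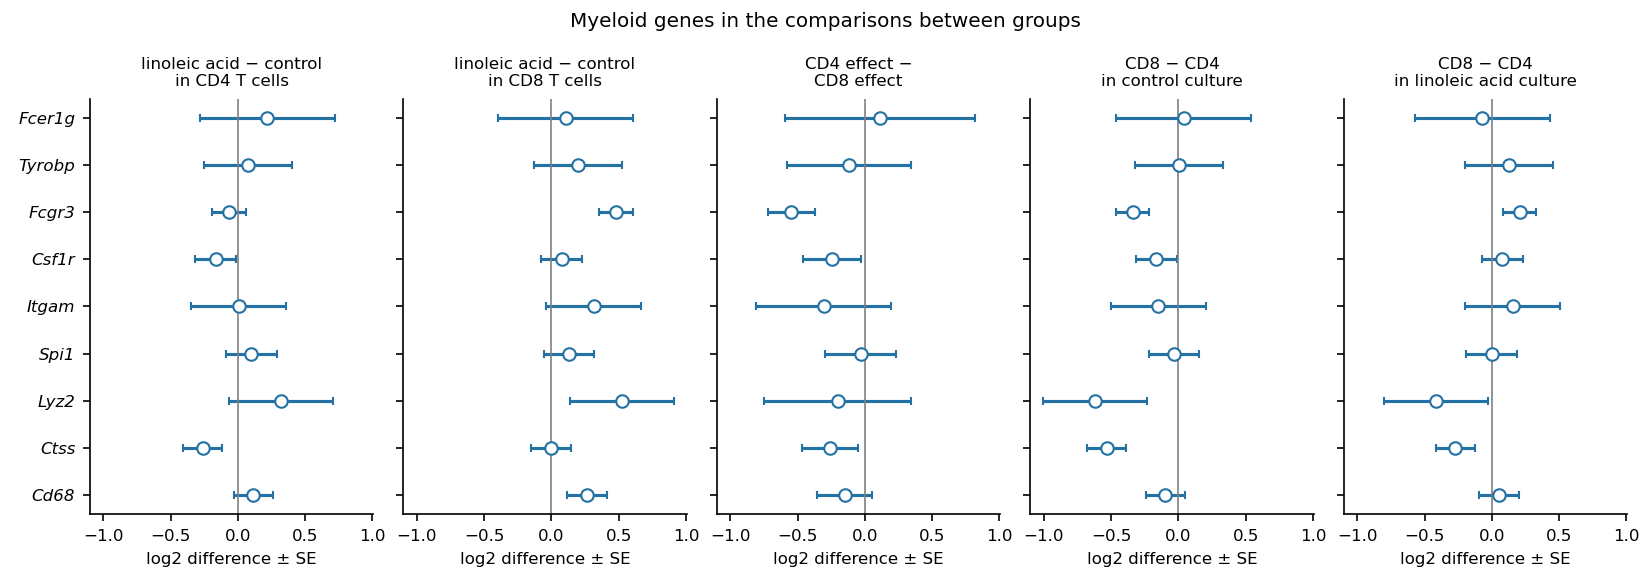
Log2 difference with SE (x axes) of the 9 tested myeloid genes in the 5 comparisons between groups, each group with 3 arrays. No gene passed the adjusted threshold; Fcgr3 lies at 0.48 for linoleic acid in CD8 T cells, and Ctss at -0.53 for CD8 minus CD4 in control culture.

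Linoleic acid in the CD4 sorts left no myeloid gene past the threshold, and 0% of all genes passed. Without a block 373 genes, 2.6% of those tested, and 0 of the 9 myeloid genes had an unadjusted p under 0.05. With the replicate number as a block 1 gene passed (0.00698%), Cpt1a, which encodes the enzyme that admits fatty acids to mitochondria (1.34 ± 0.15, limma adjusted p = 0.00335), and still 0 myeloid genes. Over the 9 genes 6 differences were above 0, from -0.26 to 0.32, with a median of 0.08 against -0.0047 over all genes. Ctss had the lowest, -0.26 ± 0.15 (limma adjusted p = 0.9998), and all 3 linoleic acid arrays were below the control arrays. Without CD4 control replicate 3, the highest control array, it was -0.13.

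In the CD8 sorts 0 myeloid genes passed with linoleic acid and 0% of all genes did, with 728 genes at an unadjusted p under 0.05 (5.08%). The block again gave 1 gene (0.00698%), 1700091H14Rik, and 0 myeloid genes. Of the 9 genes 8 were higher with linoleic acid, with a median of 0.20 against -0.06 over all genes. Without a block Fcgr3 had the smallest p, a difference of 0.48 ± 0.12 or 1.40-fold (limma adjusted p = 0.757). It was the 1 gene of 9 with an unadjusted p under 0.05 in that fit. Its CD8 linoleic acid arrays were all above the CD8 controls, by 0.31, 0.54 and 0.59 at numbers 1, 2 and 3. Lyz2 differed by 0.52 ± 0.39 (limma adjusted p = 0.757), and with the block by 0.52 ± 0.17 (limma adjusted p = 0.296). By number its differences were -0.05, 1.03 and 0.59, so the array numbered 1 did not go with the others. It was 0.25 without CD8 linoleic acid replicate 3 and 1.01 without replicate 1 of that group. All 13 macrophage and monocyte markers were higher with linoleic acid too, with a median of 0.17 and 0 past the threshold. All 12 T cell genes were lower, with a median of -0.16. The chemosensory receptor genes had means of 3.04, 3.15 and 3.33 on CD8 control arrays numbered 1, 2 and 3. With linoleic acid their means were higher at each number, at 3.15, 3.40 and 3.46. Whether the dim signal had a part in the differences of the myeloid genes was not tested.

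The difference between the effects of linoleic acid in CD4 and in CD8 T cells was tested as an interaction, and 0 myeloid genes and 0% of all genes passed. At an unadjusted p under 0.05 stood 336 genes (2.35%). Of the 9 genes 1, Fcgr3, had an unadjusted p under 0.05. Its effect was 0.55 ± 0.18 lower in CD4 than in CD8 T cells (limma adjusted p = 0.953). The median over the 9 genes was -0.20, and 0.04 over all genes.

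Between the sorts in control culture 0 of the 9 myeloid genes passed in the fit without a block, against 1.95% of all genes. Ctss came nearest. It averaged 10.31 ± 0.23 (SD, n = 3) in CD4 and 9.78 ± 0.11 in CD8 controls, 1.45-fold lower in CD8, a log2 difference of -0.53 ± 0.15 (SE) with a limma adjusted p of 0.101. The arrays of the groups did not overlap. Without CD8 linoleic acid replicate 3, which enters through the shared estimate of spread, the adjusted p was 0.0434. Fcgr3, at 5.66 ± 0.04 and 5.32 ± 0.10, differed by -0.34 ± 0.12 (adjusted p = 0.308), also without overlap. How many of all genes lacked overlap here was not counted. Lyz2, at 6.39 ± 0.46 and 5.77 ± 0.45, differed by -0.62 ± 0.39 (adjusted p = 0.736), and its arrays overlapped. Ctss and Fcgr3 were the 2 of 9 genes with an unadjusted p under 0.05 (9.37% of all genes), and the 6 not named lay between -0.17 and 0.04.

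Of the other lists in control culture, 1 of 13 macrophage and monocyte markers passed, Ccr2, the monocyte chemokine receptor that T cells use too, lower in CD8 by 0.82. The cystatin gene Cst7 was higher in CD8 (1.79), as were Eomes (1.95) and Prf1 (0.72) of the natural killer list, which cytotoxic T cells use as well. Itgb3 of the platelet list was lower (-0.88). The B cell genes had a median of -0.32, with 12 of 13 lower in CD8 and 0 past the threshold, and the 9 myeloid genes had a median of -0.15. Whether B cell RNA had a part in the differences of Ctss and Lyz2 was not tested.

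In linoleic acid culture 0 of the 9 myeloid genes differed between the sorts past the threshold, against 2.03% of all genes. With the replicate number as a block 5.57% of all genes passed and still 0 of the 9. Ctss was at 10.05 ± 0.05 (SD, n = 3) in CD4 and 9.78 ± 0.24 in CD8, a difference of -0.27 ± 0.15 (limma adjusted p = 0.508, and 0.207 with the block). Without CD8 linoleic acid replicate 3 it was -0.41. Lyz2 differed by -0.42 ± 0.39 (adjusted p = 0.738, and 0.178 with the block). Its direction turned to 0.07 without CD8 linoleic acid replicate 1, which held the lowest Lyz2 value of the series. At an unadjusted p under 0.05 there were 0 of the 9 and 11.8% of all genes. The other 7 tested genes lay between -0.07 and 0.21, and the median of the 9 was 0.05.

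Among the partner genes in linoleic acid culture, Lgmn (-1.33) and Runx1 (-1.001) were lower in CD8 T cells and Cst7 was higher (1.51). With the block 4 of 15 ITAM partners passed, Pirb, Clec7a, Btk and Syk, each lower in CD8 (-0.68, -0.58, -0.64 and -0.45). Also lower were Cybb, 1 of 13 of the macrophage list (-0.65), and Il1b, 1 of 9 of the neutrophil list (-0.61). Cd180, 1 of 7 genes of lipopolysaccharide recognition, was lower too (-0.68). Of 11 dendritic cell genes 5 passed with the block, all lower in CD8, among them Cd83 (-0.68) and H2-Ab1 (-0.55). The B cell genes stood beside them: 13 of 13 were lower in CD8, with a median of -0.47, and 6 passed with the block. The ITAM adaptor genes Fcer1g and Tyrobp did not pass with or without the block.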

How the data were processed

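RNA of 12 sorts, 3 for each of 4 groups, was hybridized to 12 Affymetrix arrays of the type MoGene-2_0-st, in a single colour. The deposited values are log2 intensities for 41345 probe sets, made by the authors with RMA (background correction, quantile normalization and summary over probes), per the submitters' processing notes; no source used here gives its software or the genome build. RMA shifts arrays to a common distribution, so differences are relative to the whole array. The values were used as deposited. The platform annotation gave 1 symbol to 23521 probe sets, several to 1814 and none to 16010 (38.7%). Where a gene had several probe sets, that with the highest mean stood for it.

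Group means were compared in limma 3.58.1 (R 4.3.3; lmFit and eBayes, two-sided moderated test, degrees of freedom 8 residual and 5.67 prior, all 12 arrays, without a block), with Benjamini-Hochberg adjustment over 14323 genes at 0.05. The replicate number was tested by a moderated F test in a fit of group plus number, and its difference is the mean of numbers 2 and 3 minus number 1. The script was tested on simulated data. Precision is limited by how few arrays there were.

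Deviations of same-numbered arrays correlated at 0.61, 0.19 and 0.32 between the CD4 groups, at 0.43, 0.19 and 0.42 between the CD8 groups and at 0.58, 0.26 and 0.52 between CD4 and CD8 in linoleic acid culture. The numbers were taken to pair these arrays, from the data and not the labels. For these comparisons, values with the number as a block stand beside results of the myeloid genes where they move a call or a count. Between the CD4 and CD8 controls the correlations were 0.54, -0.01 and 0.42, and for the value at number 2 these were not taken as paired. Their blocked values, which change the call on 2 myeloid genes, stand in the closing section.

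The myeloid genes, and 15 lists of 176 other genes (156 measured, 123 tested), were chosen with earlier results of these data known. Every myeloid gene is named. Of a list, the 3 genes with the smallest p, or up to 5 past the threshold, are named. For likeness, the 10 genes most correlated with the mean of the 9 tested myeloid genes and the 3 most correlated with each are named, leaving out small RNAs, chemosensory receptors, segments of antigen receptors and predicted genes. Promoter sequences are RefSeq's. Alternatives were a fixed and a random block, other filters and scalings, trended and robust variances, subsets of groups and leaving out each array.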

Additional observations from a re-analysis of the deposited data

Results flagged for a closer look

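The effect of linoleic acid on Cd14 ran opposite ways in the sorts. Linoleic acid arrays were lower than the same-numbered controls in CD4 T cells by -0.43, -0.22 and -0.45 and higher in CD8 T cells by 0.13, 0.17 and 0.32. The difference between the effects was -0.5744 on the log2 scale (limma adjusted p = 0.969, fit without the filter on dim genes), and the gene lies below that filter. Of all tested genes 4.7% had such opposite signs. The same value of -0.5744 for Cd14 describes the difference between the sorts, where CD8 was below CD4 in control culture at all 3 numbers and above it in linoleic acid culture at all 3.

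Fcgr3 and Csf1r showed the same turn between cultures, lower in CD8 than in CD4 in control culture at each number and higher in linoleic acid culture. The difference between cultures was -0.5469 for Fcgr3 (limma adjusted p = 0.969, same fit) and -0.243 for Csf1r (limma adjusted p = 0.969). Of all tested genes 3.71% had such a turn, and none of these differences passed the adjusted threshold.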

How the results depend on the processing

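For the replicate number, Fcer1g and Tyrobp passed in 22 of 22 alternatives and Itgam in 21 of 21, Lyz2 in 21 of 22 and Spi1 in 7 of 22, and no myeloid gene changed direction. Of the myeloid genes 3 passed with the control arrays alone, and 4 to 5 with each array left out. The count of all genes past the threshold for the number was 1068 to 1857 with each array left out, 452 with CD4 arrays only, 828 with CD8 arrays only, 275 with control arrays only and 374 with linoleic acid arrays only, against 2011. Ctss passed for the number with trended and robust variances alone (adjusted p = 0.0358). The share of these calls that were lower on number 1 was 32.5%, 28.0% after centring arrays on their medians, 38.3% after repeated quantile normalization, 49.1% without the filter and 21.5% with the filter at the 60th percentile. In the subsets it was 70.4% with CD4 arrays, 51.4% with CD8 arrays, 81.1% with control arrays and 71.1% with linoleic acid arrays, so most calls were lower on number 1 there.

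With a fixed replicate block 1 gene passed for linoleic acid in CD4 T cells, 1 in CD8 T cells, 630 for CD8 against CD4 in control culture and 798 in linoleic acid culture. In control culture 2 myeloid genes passed with that block, Ctss (adjusted p = 0.0117) and Lyz2 (0.0451); same-numbered arrays there correlated at 0.54, -0.01 and 0.42, so the numbers were not taken to pair them. The block changed no other call on a myeloid gene. A random replicate block (correlation 0.222) gave 1 gene for linoleic acid in CD4 T cells, 461 in control culture with 1 myeloid gene, Ctss, and 523 in linoleic acid culture. Fitting the compared groups alone gave 138 genes between the sorts in linoleic acid culture, and numbers 2 and 3 alone, chosen after seeing the data, gave 1 gene for linoleic acid in CD4 T cells. Leaving out each array gave 0 to 1 myeloid genes and 176 to 347 genes between the sorts in control culture, and 150 to 322 genes in linoleic acid culture. The difference of Lyz2 between the sorts in linoleic acid culture ran from -0.73 to 0.073, turning sign without CD8 linoleic acid replicate 1. The causes of these shifts were not tested, and the subsets held fewer arrays.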
